A study of Mus musculus with 10 samples.

Results

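Narrow H3K9ac peaks that kept a peak after Kat2a inhibition were examined in mouse embryonic stem (ES) cells. They are the peaks of the DMSO list that were less than 400 bp wide and shared at least 1 bp with a peak of the MB-3 list, and 307 of the 11724 DMSO peaks met both conditions. The other 3271 of the 3578 narrow DMSO peaks overlapped no MB-3 peak, and they served for comparison as lost narrow peaks. Because the kept peaks were selected on their width and on their overlap with the MB-3 list, those 2 properties are given as a description, with no test.

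The cells were TNGA cells, an ES cell line with a GFP reporter at a single Nanog allele, cultured with serum and LIF. Cultures received either 100 μM MB-3, an inhibitor of the acetyltransferase Kat2a (also called Gcn5), or DMSO as vehicle for 48 hours, and every culture, control or treated, contained 0.1% DMSO. H3K9ac was mapped by ChIP-seq in duplicate, and the duplicates of a treatment were merged before peak calling, so 1 peak list stands for each treatment: 11724 peaks for DMSO and 4673 for MB-3. RNA-seq of poly(A) RNA comprised 3 libraries per treatment, labelled A, B and C, with total counts of 48144367, 51137896 and 46863700 for DMSO and of 49334434, 44985772 and 42270312 for MB-3. The peak lists hold positions on mm9 without heights, scores or read numbers, so the depth behind them is unknown here, and neither a spread between cultures nor a test between treatments can be obtained from them. The intervals given with shares of peaks are Wilson 95% intervals, cover counting error only, and treat peaks as separate although neighbouring peaks share their chromatin. In the RNA libraries, all 8 ES cell markers examined, among them Sox2, Esrrb and Zfp42, had at least 73.5 CPM (counts scaled to a common library size) in every library, whereas the 5 fibroblast genes examined did not exceed 3.78 CPM.

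Acetylation of lysine 9 on histone H3 is placed by Kat2a and its relative Kat2b, which act within larger coactivator complexes, and it is found mainly on the nucleosomes that flank the start sites of active genes. The start site itself is usually free of nucleosomes, so that the mark of 1 promoter often appears as a pair of neighbouring peaks with a gap between them. A peak caller draws a narrow peak where enrichment over input is short or only just passes its limit.

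The genome sequence of mm9 was not used here, so the bases under the peaks are not shown. Instead, promoters of 4 genes nearest to kept narrow peaks are shown to give the sequence setting of the mark: Gsk3b and Mrpl52, where an MB-3 peak lay across 2 DMSO peaks, and Map7 and Eif1, whose transcripts changed in opposite directions in a paired fit. They come from RefSeq on GRCm38.p6, run from 250 bases before to 50 bases after the start site, lie on the plus strand, and are written 5′ to 3′ with each CG in capitals. Their positions are chr16:38088751-38089050 for Gsk3b, chr10:20148670-20148969 for Map7, chr11:100319699-100319998 for Eif1 and chr14:54426659-54426958 for Mrpl52. As peaks and promoters are on different builds, whether a peak covers any of these bases was not determined.
Gsk3b: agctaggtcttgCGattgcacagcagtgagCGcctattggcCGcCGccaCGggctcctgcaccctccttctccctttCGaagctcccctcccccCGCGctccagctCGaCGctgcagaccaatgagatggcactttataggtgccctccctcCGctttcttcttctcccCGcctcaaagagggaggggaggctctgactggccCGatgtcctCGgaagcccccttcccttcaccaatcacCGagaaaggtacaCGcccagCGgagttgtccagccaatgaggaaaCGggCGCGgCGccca
Map7: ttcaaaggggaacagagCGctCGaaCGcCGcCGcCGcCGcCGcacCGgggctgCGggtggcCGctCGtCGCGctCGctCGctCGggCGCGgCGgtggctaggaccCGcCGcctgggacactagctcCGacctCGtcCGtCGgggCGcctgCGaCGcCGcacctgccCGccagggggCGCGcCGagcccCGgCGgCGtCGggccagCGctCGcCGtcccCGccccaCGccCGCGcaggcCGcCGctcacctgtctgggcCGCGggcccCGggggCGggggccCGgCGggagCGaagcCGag
Eif1: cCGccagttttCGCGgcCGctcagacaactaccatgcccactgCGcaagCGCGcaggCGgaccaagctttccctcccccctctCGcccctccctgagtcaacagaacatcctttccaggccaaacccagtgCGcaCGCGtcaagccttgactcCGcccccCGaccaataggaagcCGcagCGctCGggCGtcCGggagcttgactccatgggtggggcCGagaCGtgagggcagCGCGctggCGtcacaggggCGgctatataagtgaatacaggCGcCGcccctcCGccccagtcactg
Mrpl52: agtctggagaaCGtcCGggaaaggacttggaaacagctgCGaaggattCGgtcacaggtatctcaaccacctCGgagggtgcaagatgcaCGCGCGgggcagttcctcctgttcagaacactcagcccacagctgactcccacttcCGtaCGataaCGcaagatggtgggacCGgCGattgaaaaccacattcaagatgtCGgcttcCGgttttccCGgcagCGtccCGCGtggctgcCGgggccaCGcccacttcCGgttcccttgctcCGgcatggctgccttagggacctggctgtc

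These promoters were rich in CG, with 21 CG in the sequence of Gsk3b, 55 in that of Map7, 28 in that of Eif1 and 23 in that of Mrpl52, against a median of 7 over all 32841 RefSeq promoters. The same held for the nearest genes of kept narrow peaks at large: the 125 promoters found for 100 of 125 genes had a median GC content of 62.3% and a median of 23 CG. The 431 promoters found for 342 of the 437 genes near lost narrow peaks had the same median GC content, 62.3%, and a median of 22 CG. The median ratio of observed to expected CG was 0.828 near kept and 0.781 near lost narrow peaks. Over the 61 promoters near kept narrow peaks from the same chromosomes as the lost ones, the medians were 61.3% GC, 22 CG and a ratio of 0.830. No difference in base composition was tested. The Ets letters CCGGAAGT, searched on both strands, occurred in 15 of the 125 promoters (12.0%), in 6.26% of the promoters near lost narrow peaks and in 3.89% of all promoters. The Nrf1 palindrome occurred in 6 of the 125 (4.80%), and in 1.39% and 0.971% of the other sets, and the Yy1 motif in 5 (4.0%), 1.86% and 0.633%. The E-box letters CACGTG, bound by Myc and Max, went the other way, with 10.4% for kept and 12.5% for lost, beside 7.15% of all promoters. The TATA letters TATAAA were found in 5.60% and 5.80%, against 13.6% of all promoters, and the E2F letters TTTCGCGC or TTTGGCGC in 0.80% and 1.16%, against 0.813%. Lost narrow peaks had gene names only on chromosomes 1, 10 and a stretch of 11. For the 61 promoters of kept narrow peaks from there, the values were 13.1% for the Ets letters (8 promoters), 3.28% for the Nrf1 palindrome (2), 6.56% for the Yy1 motif (4), 11.5% for the E-box letters (7), 8.20% for the TATA letters (5) and 0 for the E2F letters. Near wide kept peaks, the Ets letters stood in 9.12%, the Nrf1 palindrome in 2.74%, the Yy1 motif in 3.47%, the E-box letters in 15.5%, the TATA letters in 6.75% and the E2F letters in 2.74% of promoters. These are matches of letters within 300 bases, with no evidence of binding, and rest on few promoters.

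Few narrow peaks were kept. Their kept share was 8.58% (307 of 3578, interval 7.71 to 9.54), whereas 47.8% (3896 of 8146) of peaks at least 400 bp wide overlapped an MB-3 peak, and narrow peaks made up 30.5% of the DMSO list but 7.30% of the kept peaks. The kept share rose with width within the narrow class as well, from 4.07% (19 of 467) at 250 to 274 bp to 14.6% (78 of 535) at 375 to 399 bp. It went on rising past the limit without a step, to 17.5% at 400 to 424 bp and 35.3% at 575 to 599 bp. Just inside the limit, 34 of 207 peaks of 390 to 399 bp were kept (16.4%), and just outside it, 40 of 211 peaks of 400 to 409 bp (19.0%). The kept narrow peaks had a median width of 337 bp (quartiles 304 and 375), and the lost ones 318 bp (quartiles 287 and 356). No DMSO peak was narrower than 266 bp, a width held by 5 of the kept narrow peaks.

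**Figure D1:**
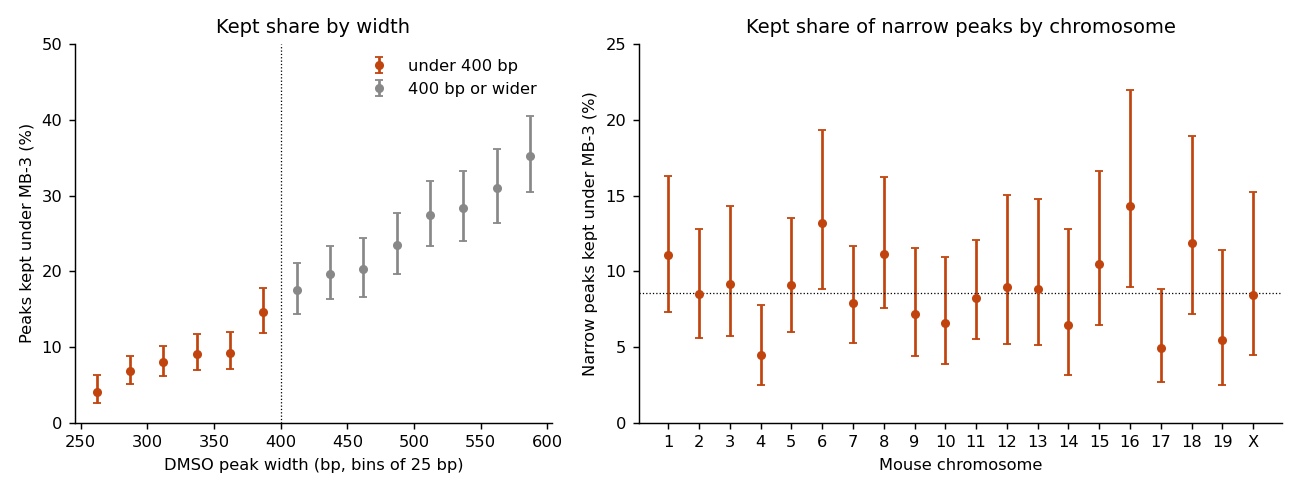
Share of DMSO H3K9ac peaks kept under MB-3 (%), by DMSO peak width in bins of 25 bp (left; the dotted line marks the 400 bp limit) and, for narrow peaks, by chromosome (right; the dotted line marks the share of all narrow peaks, 8.58%). Points are shares and bars Wilson 95% intervals; the share rose from 4.07% to 14.6% below the limit, and on chromosomes it lay between 4.45% and 14.3%.

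Of the narrowest kept peaks, at 266 bp, the one at mm9 chr17:26276208-26276473 lay closest to Axin1, the scaffold of the complex that marks β-catenin for destruction. Its MB-3 partner was 328 bp wide and covered 88.3% of it, and the nearest other DMSO peak was 14975 bp away. Also of 266 bp were the peaks at chr2:31829368-31829633, with a 310 bp partner, and at chr11:72608627-72608892, nearest to Cyb5d2 and with a 404 bp partner that overlapped another DMSO peak too. The widest, at 399 bp, included peaks nearest to Mrpl52, a protein of the mitochondrial ribosome (chr14:55045231-55045629), to Plxdc1 (chr11:97849724-97850122) and to Kctd2 (chr11:115281701-115282099). For a gene name, the nearest-gene column of the study's peak file was read, of which the first 1999 lines per list were at hand. They name a gene, at any distance, for 129 of the 307 kept narrow peaks and give 125 different genes. Of the 129, 55 were named from the DMSO list itself and 74 through the MB-3 partner, whose nearest gene was taken for the member. For all 55 members named in both lists, the names were identical.

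For a kept narrow peak, the MB-3 partner, which is the MB-3 peak that shares most bases with it, was in general a peak of similar size at the same place. The partner had a median width of 319 bp (quartiles 273 and 386.5), and for 238 of the 307 members (77.5%) it was narrow itself, against 39.5% for wide kept peaks. As these classes were set by DMSO width, that contrast follows in part from the selection. As 5 MB-3 peaks were partner to 2 members each, there were 302 different partners. The partner covered a median of 77.4% of the DMSO peak, at least 50% of 266 peaks, and its centre lay a median of 58 bp away. It was wider than the DMSO peak in 138 of 307 cases (45.0%, interval 39.5 to 50.5), narrower in 167 and of equal width in 2. Among wide kept peaks, the partner was the wider one in only 4.31% (168 of 3896). The width limit enters the contrast in wider partners by construction too, since no peak of the MB-3 list was under 250 bp and a narrow DMSO peak could have a smaller partner only within a short range. The partner was exactly 250 bp wide for 20 members. In 209 cases the partner was shifted to one side, in 65 it lay inside the DMSO peak and in 33 it covered the whole peak. The centres were shifted toward higher coordinates in 161 of 307 cases (52.4%, interval 46.9 to 58.0), which includes an even split.

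Some partners reached beyond the member. For 28 of the 307 (9.12%), the partner also overlapped 1 or more other DMSO peaks, 2 further peaks in a single case, and for 18 of the 28 another of the peaks it covered was at least 400 bp wide. These partners had a median width of 578.5 bp and covered a median of 53.2% of the member, whereas the partners of the other 279 members had a median width of 306 bp and covered 78.4%. The widest partner, 2237 bp, belonged to a 389 bp peak at chr6:67219044-67219432, which had a DMSO neighbour of 1928 bp only 51 bp away. Next came a partner of 2099 bp that spanned 3 DMSO peaks at chr2:20594602-20594998, and one of 1200 bp over a 307 bp peak at chr6:113327770-113328076. At the other extreme, 10 members shared fewer than 50 bp with their partner and 5 fewer than 20 bp, the least being 3 bp at chr6:39542867-39543139. On the other side of the rule, 13 lost narrow peaks had an MB-3 peak within 50 bp and 663 (20.3%) within 1000 bp.

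**Figure D2:**
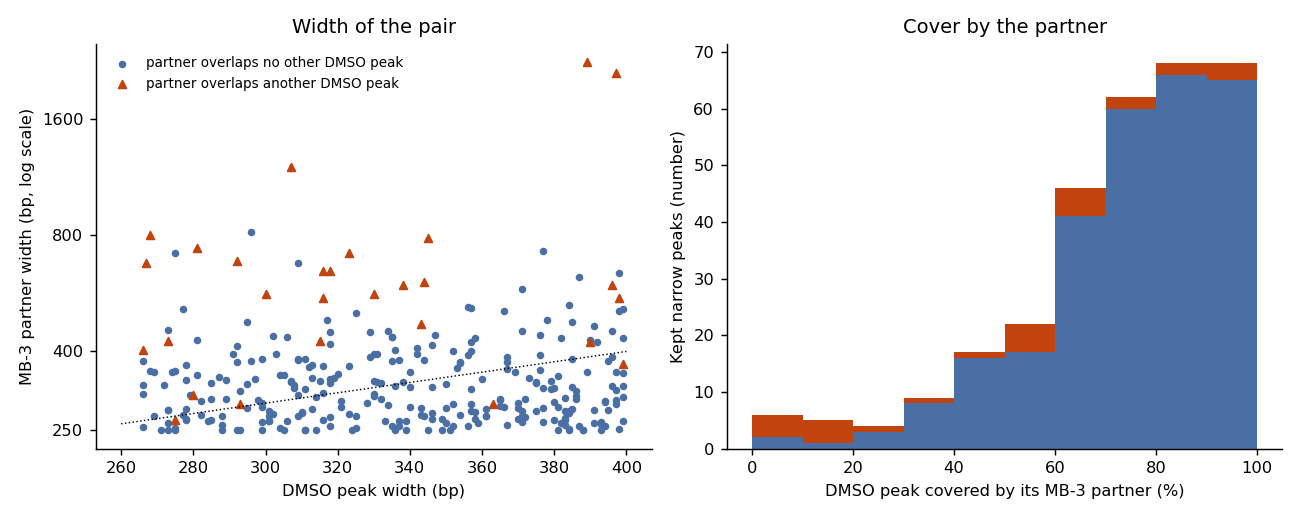
Left, width of each kept narrow DMSO peak against the width of its MB-3 partner (bp, log scale on the vertical axis), where the dotted line marks equal widths; 138 of 307 points lie above it. Right, number of kept narrow peaks by the percentage covered by the partner; triangles and the upper part of the bars are the 28 members whose partner overlaps another DMSO peak, and they hold most of the members covered by less than 20%.

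Neighbours of kept and lost narrow peaks were then compared. Another DMSO peak lay within 5 kb, edge to edge, of 191 of 307 kept narrow peaks (62.2%, interval 56.7 to 67.5) and of 1888 of 3271 lost ones (57.7%, interval 56.0 to 59.4). The difference of 4.50 percentage points had a 95% interval of -1.30 to 10.0 (Newcombe), which includes 0. It was 0.70 points (-5.39 to 6.59) without the 28 members whose partner overlapped another DMSO peak, a comparison added after the data had been seen. Those members had a neighbour by construction, and no lost peak could be left out in this way, so the direction of this drop was fixed beforehand. With all members and a limit of 350 bp the difference was 9.47 points (2.08 to 16.1), and with 450 bp 5.60 points (0.98 to 10.0), so the interval cleared 0 on either side of the limit in use but not at it. For orientation, 63.8% of wide kept and 55.6% of wide lost peaks had such a neighbour. The median distance to the nearest other DMSO peak was 607 bp for kept and 958 bp for lost narrow peaks. Both classes fell into close and far peaks with few between: 143 kept narrow peaks were within 500 bp of another peak and 17 at over 1000 and up to 5000 bp, whereas 67 were at 5 to 50 kb.

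What became of the neighbour separated kept from lost narrow peaks more than its presence did. Of the 191 kept narrow peaks with a neighbour within 5 kb, the nearest was itself kept in 114 (59.7%, interval 52.6 to 66.4), against 682 of 1888 (36.1%, interval 34.0 to 38.3) for lost narrow peaks. Wide peaks had the same order. Of wide kept peaks with such a neighbour, the nearest was kept in 46.0% (1144 of 2485, interval 44.1 to 48.0). For wide lost peaks the share was 35.4% (836 of 2364, interval 33.5 to 37.3). Read the other way, a narrow peak next to a kept peak was kept in 14.3% of cases (114 of 796, interval 12.1 to 16.9) and next to a lost peak in 6.0% (77 of 1283, interval 4.83 to 7.44). With no neighbour in reach the share was 7.74% (116 of 1499, interval 6.49 to 9.20). Without the 28 members whose partner reached another DMSO peak, the share next to a kept peak was 11.2% (86 of 768, interval 9.16 to 13.6), still above the interval beside a lost peak, but its interval now overlapped that of narrow peaks with no neighbour. Of the 163 kept narrow peaks with a neighbour that then remained, the nearest was kept for 86 (52.8%, interval 45.1 to 60.3), an interval that overlapped that of wide kept peaks. The order also held at both distances, with 15.8% (93 of 587) against 6.08% (50 of 823) for neighbours within 500 bp, where without the 28 members the first share was 11.6% (65 of 559, interval 9.23 to 14.6), and 10.0% (21 of 209) against 5.87% (27 of 460) farther away, although the intervals overlapped in the second case, 6.67 to 14.9 and 4.06 to 8.41. Where the kept neighbour was at least 400 bp wide, 13.0% of narrow peaks were kept (96 of 738), against 6.04% (44 of 728) beside a lost neighbour of that width, with the 28 members included. Among the 58 narrow peaks whose nearest neighbour was a kept narrow peak, 18 were kept (31.0%), a value that counts both peaks of a pair and includes the 5 MB-3 peaks that were partner to 2 members each.

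**Figure D3:**
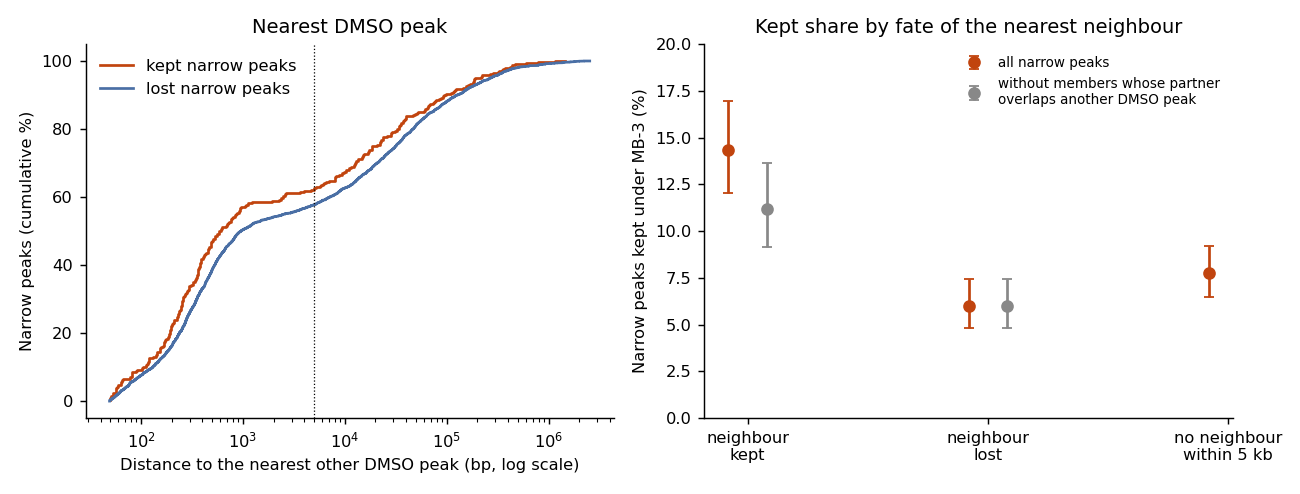
Left, cumulative share (%) of kept and lost narrow peaks by distance to the nearest other DMSO peak (bp, log scale; the dotted line marks 5 kb), with the kept curve above the lost one over most distances and medians of 607 and 958 bp. Right, share of narrow peaks kept under MB-3 (%) by fate of the nearest neighbour within 5 kb, with Wilson 95% intervals: 14.3% beside a kept peak, 6.0% beside a lost peak and 7.74% with no neighbour, and in grey without the 28 members whose partner overlapped another DMSO peak.

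The centre of the MB-3 partner lay on the neighbour's side in 110 of 191 members (57.6%, interval 50.5 to 64.4). Where the partner overlapped no other DMSO peak, it did so in 82 of 163 (50.3%, interval 42.7 to 57.9), with a median shift of 4 bp toward the neighbour. A partner that overlaps another DMSO peak reaches toward a neighbour. Leaving such partners out therefore removes leaning ones by construction, and the second share cannot show whether partners lean. The neighbours of kept narrow peaks had a median width of 582 bp and those of lost ones 529 bp, at median gaps of 268 and 340.5 bp.

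The 116 kept narrow peaks with no neighbour within 5 kb were somewhat wider than the others. Their median width was 352.5 bp against 330 bp for the 191 with a neighbour, their partner's 325 bp against 311 bp, and the partner was wider in 44.0% of them, against 45.5% of members with a neighbour. The most remote lay 1458349 bp from any other DMSO peak, at chr3:159158418-159158690, and its 261 bp partner covered 43.6% of it. Another, 1151508 bp from the next peak at chr10:14424872-14425169, was nearest to Vta1, a protein of endosomal sorting. A further isolated peak, of 371 bp at chr7:69564588-69564958, lay 792030 bp from the next and had a 263 bp partner.

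Examples of these configurations are drawn around 6 members, all given on mm9. The peak nearest to Dppa2, a DNA-binding protein of pluripotent cells, stood alone, with 375 bp in DMSO (chr16:48310941-48311315), 280 bp in MB-3 and no other DMSO peak within 25923 bp. Close to Zfp652, a zinc finger protein, a 312 bp peak was fully covered by its 364 bp partner (chr11:95574722-95575033) while its 353 bp neighbour at 197 bp was lost. The peak of 356 bp nearest to Eif1, a factor for start codon selection (chr11:100180594-100180949), had 2 neighbours, both of which were kept but narrower in MB-3. At Gsk3b, the kinase of the β-catenin destruction complex, 2 members of 330 and 300 bp (chr16:38087972-38088301 and chr16:38088491-38088790) were 189 bp apart in DMSO and were bridged by 1 MB-3 peak of 563 bp, which shared 227 and 147 bp with them and did not reach their outer ends. At Cxadr, a cell adhesion protein of tight junctions, 2 members of 293 and 363 bp (chr16:78302074-78302366 and chr16:78302468-78302830) likewise had 1 partner of 292 bp between them, which shared 5 and 186 bp with them. The 336 bp peak nearest to the histone gene Hist1h3c (chr13:23835960-23836295) had 3 DMSO neighbours within 5 kb.

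**Figure D4:**
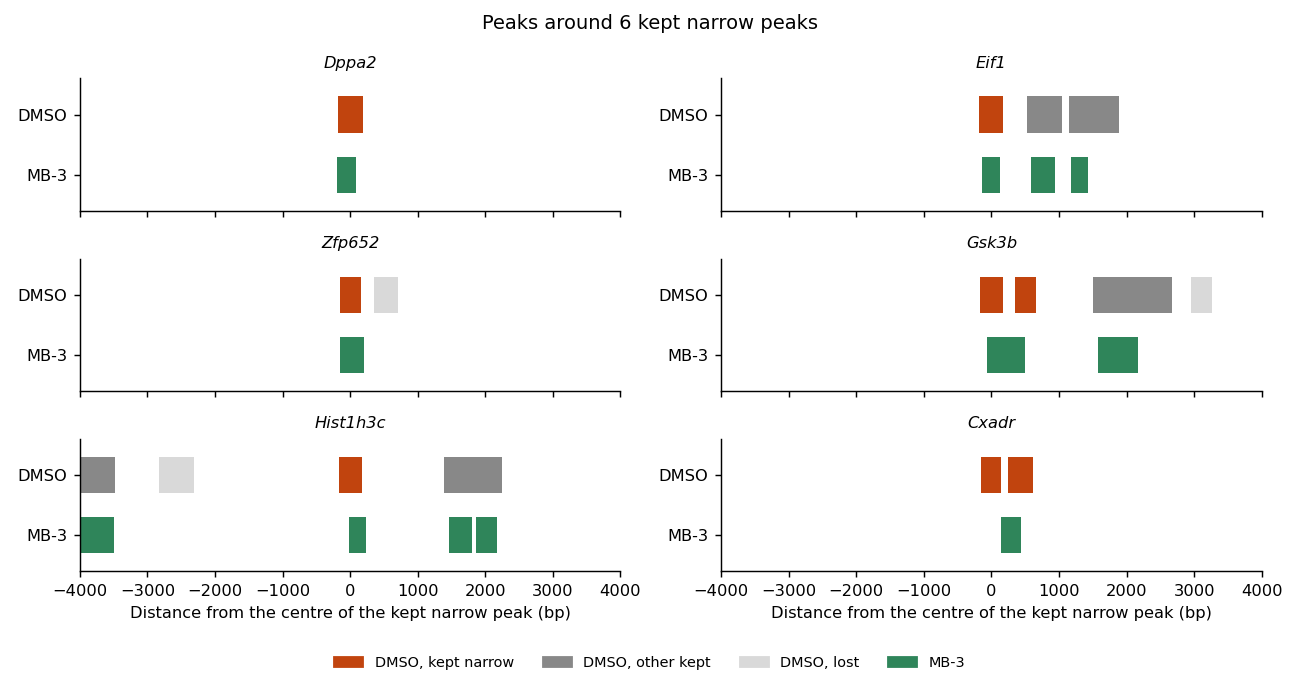
DMSO peaks (upper row) and MB-3 peaks (lower row) around 6 kept narrow peaks named by the nearest gene, as distance in bp from the centre of the member. Gsk3b and Cxadr have 1 MB-3 peak across 2 members, Zfp652 a lost neighbour of 353 bp, and Dppa2 no neighbour.

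Further genes had 2 members each, Lifr and Ppp2r5c. Near Lifr, the receptor subunit for the LIF in the medium, members of 318 bp (chr15:7066253-7066570) and 399 bp (chr15:7078900-7079298) were 12329 bp apart, and each was the other's nearest DMSO peak. Ppp2r5c, a regulatory subunit of the phosphatase PP2A, had members of 346 bp (chr12:111684806-111685151) and 330 bp (chr12:111724036-111724365). In all, 20 members lay within 5 kb of another member.

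Kept narrow peaks were found on every autosome and on the X chromosome, most often on chromosomes 8 and 11 with 23 each, which is 11.2% of the 206 narrow peaks on chromosome 8 and 8.24% of the 279 on chromosome 11. The kept share of narrow peaks ranged from 4.45% on chromosome 4 (11 of 247, interval 2.50 to 7.80) to 14.3% on chromosome 16 (16 of 112, interval 8.99 to 22.0), and of the 20 chromosomes compared, 2, chromosomes 6 and 16, had an interval wholly above the share of all narrow peaks and 1, chromosome 4, wholly below it. With 20 intervals at 95%, some can miss the common share by counting error alone. Narrow peaks had a median width of 340 bp on chromosome 6, 325.5 bp on chromosome 16 and 314 bp on chromosome 4. On all autosomes it was 319 bp, and whether width accounts for these kept shares was not tested. Wide peaks were kept at 48.7% on chromosome 4, 45.6% on chromosome 16 and 53.4% on chromosome 6. On the X chromosome, wide peaks were kept less often than on autosomes, 35.7% (70 of 196, interval 29.3 to 42.6) against 48.1% (3824 of 7947, interval 47.0 to 49.2). Wide peaks had a median width of 596.5 bp on X and of 664 bp on autosomes, and whether width accounts for the difference in kept share was not tested. For narrow peaks the kept shares were 8.41% on X (9 of 107, interval 4.49 to 15.2) and 8.59% on autosomes, with an interval on X too broad to show a gap like that of wide peaks.

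Other peaks at the nearest gene were counted as well. In the part of the DMSO list with gene names, which covers chromosomes 1, 10 and a stretch of 11, the nearest gene also had another DMSO peak for 35 of 55 kept narrow peaks (63.6%) and for 332 of 535 lost ones (62.1%). It had another kept peak for 26 of 55 (47.3%, interval 34.7 to 60.2) against 158 of 535 (29.5%, interval 25.8 to 33.5). Without the 5 members whose partner overlapped another DMSO peak, each of which had another kept peak at its gene, the share was 21 of 50 (42.0%, interval 29.4 to 55.8), and its interval overlapped that of lost peaks. This comparison, too, was added after the data had been seen.

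Gene groups were counted by the start of the symbol in the peak file, and pluripotency genes by a list of names, so members of a family under other symbols are not in these counts. Of the 125 genes, 13 had a symbol of 1 of the 10 groups. Histone genes (Hist, H2af, H3f or H1f) numbered 5: H2afv, which encodes a form of the variant H2A.Z, and Hist1h2ad, Hist1h2bm, Hist1h3c and Hist1h3e of the cluster on chromosome 13. The 4 genes of that cluster lie outside the part of the DMSO list with names, so their share among lost peaks was not determined. Within the part, histone genes numbered 1 of the 55 genes near kept narrow peaks (1.82%), 3 of 437 near lost ones (0.686%) and 4 of 1292 near any DMSO peak (0.310%). Symbols starting with Nduf, Cox, Uqcr or Atp5, which name respiratory chain and ATP synthase subunits, numbered 2 (Cox5b and Ndufs6), as did Mrpl or Mrps symbols of mitochondrial ribosomal proteins (Mrpl39 and Mrpl52) and Zfp symbols of zinc finger proteins (Zfp472 and Zfp652). Translation factors (Eif or Eef) numbered 1, Eif1, and listed pluripotency genes 1, Dppa2. Sdha, a subunit of complex II of the respiratory chain, and the zinc finger factors Sp1 and Yy1 were also nearest genes but lie outside these symbols, and were named after their values were seen. Near any DMSO peak of the named part, the respiratory chain and mitochondrial ribosomal symbols each made up 1.08%, Zfp symbols 0.929%, translation factors 0.697% and listed pluripotency genes 0.232%, where 2 and 1 of 125 genes make up 1.6% and 0.80%. Of the 55 genes near kept narrow peaks of that part, respiratory chain, Zfp and translation factor symbols numbered 1 each (1.82%). Mitochondrial ribosomal symbols and listed pluripotency genes numbered 0 there. None of the 125 had an Rpl or Rps symbol of cytosolic ribosomal proteins, a splicing or hnRNP symbol starting with Srsf, Snrp, Hnrnp, Sf3 or Prpf, a proteasome symbol starting with Psm, or a snoRNA host symbol (Snhg or Gas5). Genes with such roles under other symbols were present, as with Nop58, which hosts snoRNAs in its introns, and Pcbp2, a poly(C)-binding hnRNP, both picked after the counts were seen. Of the 1292 genes nearest to any DMSO peak in the named part, cytosolic ribosomal symbols made up 0.929%, splicing and hnRNP symbols 1.01% and proteasome symbols 0.464%.

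The nearest genes of kept narrow peaks were expressed at moderate levels. Of 125 genes, 123 were matched to the count table and 121 had enough counts to be tested. In DMSO their median level was 11.3 CPM per kilobase of exon (quartiles 4.42 and 23.2), with medians of 11.5, 11.6 and 11.2 in libraries A, B and C. Over the 53 of them from the named part of the DMSO list it was 12.4. The median over 422 genes near lost narrow peaks but no kept narrow one was lower, 7.70 (quartiles 3.17 and 17.7), with 7.53, 7.72 and 7.79 in the 3 libraries, so the median of the first set was the higher in each DMSO library, although the quartiles of the genes overlapped. Of the 535 lost narrow peaks in the named part, 152 (28.4%) shared their nearest gene with a wide kept peak. Genes near any DMSO peak of that part had a median of 10.4 (quartiles 4.27 and 23.6). Genes near wide kept peaks had a median of 18.4 and all 20027 tested genes 3.60. The 5 highest per kilobase were Hmga1, a chromatin protein with AT-hooks (188 CPM per kilobase), Cacybp, a calcyclin-binding protein (165), Etv5, an Ets transcription factor (98.8), Bzw1 (70.2) and Eif1 (65.3).

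MB-3 left the level of these genes nearly where it was. In MB-3 the medians over the 121 genes were 11.7, 11.7 and 11.9 CPM per kilobase in libraries A, B and C, each above the DMSO library of its letter. For genes near lost narrow peaks they were 7.29, 7.40 and 7.37, each below the DMSO library of its letter, and this difference in sign was not tested. The median log2 fold change (MB-3 over DMSO) was 0.014, beside 0.008 for genes near lost narrow peaks and -0.001 over all tested genes, with a range of -0.43 to 0.75, and none changed by 2-fold. Genes near lost narrow peaks come only from chromosomes 1, 10 and a stretch of 11, and for the 53 tested genes near kept narrow peaks from there the median was -0.01, with 25 above 0 and 28 below. In the quasi-likelihood fit of edgeR, adjusted after Benjamini-Hochberg, 0 of the 121 were differentially expressed, where 0.205% of all genes were (41 of 20027). An unadjusted edgeR p-value under 0.05 was found for 11 of them (9.09%), beside 10.9% of all genes. DESeq2 called 2 of 120, Map7 and Zfp652 (1.67%), beside 1.04% of all genes. Without DMSO replicate B, edgeR called 5 of the 121 (4.13%), among them Cxadr, Hist1h3e, Slit3 and Zfp652, beside 2.55% of all genes. With the replicate letter as a block, used because libraries of 1 letter deviated together, edgeR called 10 of the 121 (8.26%), beside 7.12% of all genes. For genes near lost narrow peaks the blocked count was 50 of 422 (11.8%), and for those near kept ones from the same chromosomes 5 of 53 (9.43%). The MB-3 libraries all lay above or all below the DMSO libraries for 15 of the 121 (12.4%), against 15.6% of all tested genes and 20.6% of the genes near lost narrow peaks (9.43%, 5 of 53, near kept ones from the same chromosomes).

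Of the 10 genes called in the paired fit, 6 rose and 4 fell, all by less than 2-fold. Among the transcription factors and pluripotency genes, Zfp652 (ENSMUSG00000075595, GRCm38 chr11:95712673-95835115) had 98.6, 99.9 and 85.0 CPM in DMSO libraries A, B and C and 122, 113 and 110 CPM in MB-3, so the groups did not overlap, and its log2 fold change was 0.28 ± 0.07 (SE; edgeR adjusted p = 0.148, and 0.000112 with the block). Its exons overlap those of other genes on either strand, and strand use in counting is not given in the sources used here. Etv5 (ENSMUSG00000013089, chr16:22381309-22439719) stood at 407, 402 and 408 CPM in DMSO and at 461, 450 and 464 CPM in MB-3. The groups did not overlap, with a log2 fold change of 0.18 ± 0.05 (edgeR adjusted p = 0.233, and 0.00605 with the block). For Dppa2 the values were 49.4, 53.7 and 42.4 CPM in DMSO and 52.6, 57.5 and 54.2 CPM in MB-3, each MB-3 library above the DMSO library of its letter although the groups overlapped (log2 fold change in the block 0.18, edgeR adjusted p = 0.0397).

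In signalling and adhesion, Lifr had 38.3, 43.6 and 32.6 CPM in DMSO and 45.8, 42.6 and 41.6 CPM in MB-3. It overlapped between treatments, was lower in MB-3 for letter B, and was called with the block at an adjusted p of 0.0495. Cxadr (ENSMUSG00000022865, chr16:78301489-78359774) fell from 34.9, 30.5 and 37.4 CPM to 28.9, 27.1 and 29.7 CPM, without overlap, by 0.26 on the log2 scale in the block (edgeR adjusted p = 0.0026). Its exons overlap those of 2 genes on the opposite strand. Slit3, a secreted guidance ligand, had 8.45, 4.73 and 10.1 CPM in DMSO and 5.87, 4.92 and 7.25 CPM in MB-3. It was lowest for letter B in either treatment and was not lower in MB-3 for that letter, and edgeR gave it an adjusted p of 0.0454 with the block. The fibroblast gene Col1a2 also was lower in MB-3, at 2.16, 1.24 and 2.20 CPM in DMSO and 0.723, 0.524 and 1.07 CPM in MB-3, and of the list's 5 genes Col1a1 and Pdgfrb had the same order without overlap. Col3a1 and Thy1 overlapped between treatments. Col3a1 was higher in MB-3 for letters A (0.457 to 0.543 CPM) and B (0.479 to 0.546 CPM), and Thy1 for letter B (3.49 to 3.78 CPM). Summed over the 5 genes, the level was 9.06, 7.78 and 10.4 CPM in DMSO and 6.43, 6.60 and 6.23 CPM in MB-3. By CPM, Thy1 was the highest of the list in 6 of 6 libraries, none was at 0, and whether such cells took part in the change of Slit3 was not tested.

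Among housekeeping and chromatin genes, Eif1 (ENSMUSG00000035530, chr11:100319885-100322096) fell from 134, 136 and 140 CPM to 112, 128 and 128 CPM without overlap, by 0.16 in the block (edgeR adjusted p = 0.027). Map7, a microtubule-associated protein (ENSMUSG00000019996, chr10:20148471-20281590), rose from 52.2, 50.5 and 48.6 CPM to 60.6, 56.6 and 61.9 CPM, with no overlap and a log2 fold change of 0.24 ± 0.06 (edgeR adjusted p = 0.151, and 0.00246 with the block). Its exons overlap those of 1 gene on the opposite strand. Hist1h3e had 0.976, 1.56 and 0.965 CPM in DMSO and 2.61, 1.64 and 1.61 CPM in MB-3, the largest fold change of the 121 genes, 0.74 in the block (edgeR adjusted p = 0.0302). Most transcripts of this histone family carry no poly(A) tail and the genes are near-identical copies, so its low counts from a poly(A) library are uncertain. The other genes counted in the groups that could be tested were not called in either fit, and Hist1h2bm, not matched to the count table, was not tested. Hist1h3c, with 1.52, 1.83 and 1.74 CPM in DMSO and 3.42, 2.46 and 1.61 CPM in MB-3, and among the genes with 2 members Gsk3b, with 40.05, 36.1 and 36.5 CPM in DMSO and 43.1, 39.3 and 43.7 CPM in MB-3, came nearest (edgeR adjusted p = 0.0838 and 0.0597 with the block). Cox5b, Ndufs6, Mrpl39, Mrpl52, H2afv, Zfp472 and Axin1 had log2 fold changes between -0.05 and 0.06.

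**Figure D5:**
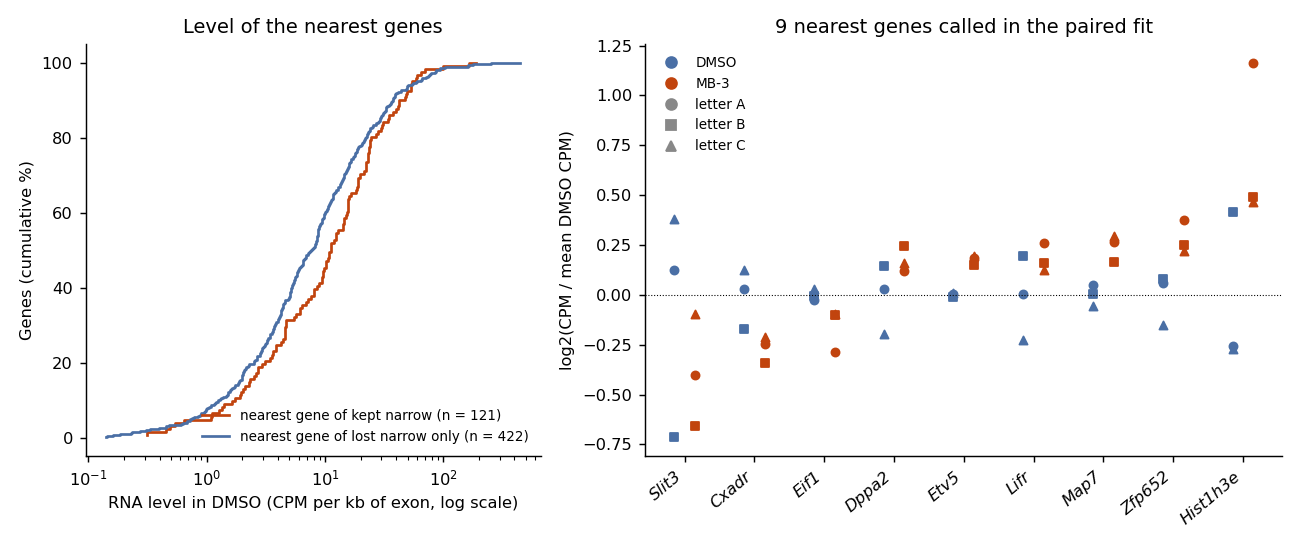
Left, cumulative share (%) of genes by RNA level in DMSO (CPM per kilobase of exon, log scale) for 121 genes nearest to kept narrow peaks and 422 near lost but no kept narrow peaks, with medians of 11.3 and 7.70. Right, log2 ratio of the CPM in each library to the mean of the 3 DMSO libraries for 9 of the 10 genes called in the paired fit; circles, squares and triangles are letters A, B and C, and the ratio in MB-3 stayed below 1 on the log2 scale except for 1 library of Hist1h3e.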

How the data were processed

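The narrow peaks, the comparisons and the gene lists were chosen with earlier results of these data known. ChIP reads had been mapped by the authors to mm9 (BWA), pooled over the duplicates with samtools because reads were few, and searched for peaks against input (MACS2, q-value below 0.01). The deposited peak lists used here hold only positions. Printed starts are 1-based, and widths are end minus start of the deposited positions. RNA reads, trimmed and single-end, had been mapped with Bowtie to mm10, and the authors deposited raw counts over exons from GenomicAlignments for 30677 genes. Versions and the use of strand are not given in the sources used here, and the submitters' processing notes also list DiffBind, DESeq, DESeq2 and deepTools.

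Peaks were compared in Python 3.11.15 with pandas 2.3.3 and statsmodels 0.14.6, and plots drawn with matplotlib 3.10.9. With no mm9 annotation at hand, gene names came from the nearest-gene column of the study's peak file, cut after 1999 lines per list, whose positions equal the deposited ones. Of 125 names, 120 matched a GENCODE M21 symbol, 3 an older symbol and 2 none. Genes passing filterByExpr (20027) were fitted with edgeR 4.0.16 in R 4.3.3 (TMM, glmQLFit, glmQLFTest, treatment only), with adjusted p-values under 0.05 called. Levels are CPM over the normalized library size, per kilobase of GENCODE M21 exons where genes are compared. Both procedures were tested on simulated data.

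Named peaks were 3 of the narrowest, 3 of the widest (more shared those widths), the 3 farthest from another DMSO peak and the 3 with the widest partner. Named genes were those differentially expressed, the 5 highest, those with 2 members, and members of 10 gene lists matched by symbol. The peaks sharing fewest bases and the 6 regions drawn were chosen after their values were seen, as were the genes called with the block. The values of 1 gene are not reported here. Libraries of 1 treatment differed beyond sampling noise (mean chi-square per gene 7.80 to 16.0, where 1 is noise). Deviations from the treatment mean correlated within letters (0.184 for A, 0.381 for B and 0.292 for C), so the letters were taken to pair the libraries. The correlations between different letters were all below 0. Deviations within a treatment sum to 0, so positive values within letters push the others below 0 on balance. The values between letters therefore add no separate support for the pairing. The labels do not say what a letter marks, and p-values measure the spread between these cultures.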

Additional observations from a re-analysis of the deposited data

How the results depend on the processing

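Changing the rule changed the number of kept narrow peaks from 307 to 970 when an MB-3 peak within 1000 bp sufficed, to 179 and 488 with width limits of 350 and 450 bp, and to 177 when MB-3 peaks had to be at least 300 bp wide. The share with a DMSO neighbour within 5 kb was 68.7% at 350 bp. The share with the wider partner, 45.0% in the report, was 57.0% at 350 bp, 34.2% at 450 bp and 75.1% with MB-3 peaks of at least 300 bp, as the limits fix which partner widths can occur. Neighbour distances of 2 and 10 kb, the cover of at least 50% and lost peaks weighted to the kept widths changed no direction.

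Genes called in MB-3 against DMSO numbered 41, but 194 with no filter on low counts, 183 by DESeq2, 1425 with the replicate block, and 0 to 520 with 1 library left out (3, 520 and 5 without DMSO replicate A, B or C, 0 without MB-3 replicate A or B, and 62 without C). Of the nearest genes, 0 were called, against 10 with the replicate block, 2 by DESeq2 and 0 to 5 with 1 library left out. With the block, calls near lost narrow peaks went from 1 to 50 of 422 and near wide kept peaks from 0 to 43 of 524. The median log2 fold change of the genes nearest to kept narrow peaks was 0.0070 with no filter and -0.00071 to 0.015 with 1 library left out, and turned below 0 without DMSO replicate C. RLE normalization moved no result. The unknown depth of the peak lists limits every share of kept peaks.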
